A study of Mus musculus with 12 samples.

Results

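Transcripts of cholesterol and fatty acid synthesis were followed in 12 mouse sarcoma tumors. The 30 genes were chosen by symbol from knowledge of the pathways: 17 enzymes of sterol synthesis, 4 regulators and carriers of sterol, and 9 enzymes that make, lengthen or desaturate fatty acids. All 30 were in the deposited table of 16335 genes, and every one had reads in all 12 libraries, with the lowest count at 14 reads (Tm7sf2 in ADI-PEG20 tumor 1). None of the 30 passed an adjusted p of 0.05 in any comparison of the treatments. A single tumor, ADI-PEG20 tumor 1, stood out among their levels and was the lowest of all 12 for 13 of the 17 sterol enzymes.

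The tumors were grown from BVMA01R, a mouse sarcoma line labelled as carrying Myf5-Cre together with the loss of both copies of p53 and of Ass1, in female C57BL/6J mice. Myf5 is a gene of muscle precursors, and its promoter drives the Cre recombinase. All groups share this line and this genotype, the controls included, so nothing here compares it with another line or with intact Ass1. There were 4 groups of 3 tumors: ADI-PEG20 plus chloroquine, ADI-PEG20 alone, chloroquine alone, and no treatment. ADI-PEG20 is a pegylated arginine deiminase, an enzyme that breaks down arginine outside cells, and cells without Ass1, the argininosuccinate synthase, cannot rebuild arginine from citrulline. Chloroquine is a weak base that collects in lysosomes and raises their pH. Doses, treatment times and the age of the mice are not given in the sources used here. Whether the 3 tumors of a group came from separate mice is not stated in the labels, and the p-values below speak only of the spread between these samples, which may be technical in part.

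Cells build cholesterol from acetyl-CoA by way of mevalonate, isoprenoids, squalene and lanosterol. The transcription factors SREBP2 and SREBP1, encoded by Srebf2 and Srebf1, switch these genes on: SREBP2 acts mainly on sterol enzymes and SREBP1 mainly on fatty acid enzymes. When membranes hold enough sterol, INSIG proteins keep the SREBP precursors in the endoplasmic reticulum, and when sterol runs short the factors are released and reach the nucleus. Cholesterol taken up with lipoproteins is set free in lysosomes and is carried out of them by NPC1 and NPC2.

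Total RNA from frozen tumors was depleted of ribosomal RNA and sequenced, and 15501998 to 28410940 reads per library were recovered from the deposited log2 CPM values (CPM, the count of a gene scaled by the effective library size). Of 10 genes listed as markers of myogenic and mesenchymal tumor cells, 9 were in the table, with a mean of 6.36 to 7.78 log2 CPM per library and none at 0 reads. ADI-PEG20 tumor 1 stood apart from the others: 120 genes were at 0 reads there against 7 to 43 elsewhere, and its median correlation with the other libraries was 0.920. Its effective library size, 12590137, was the lowest of the 12, with 15684620 to 31280299 in the others. The share of reads on 1 noncoding RNA, Gm26917, was 22.8% there and 5.09% to 16.4% elsewhere, and voom gave this library the lowest quality weight, 0.366 beside 0.581 to 1.63. Skeletal muscle markers, 14 of 15 in the table, averaged 7.09 log2 CPM in that tumor and 6.53 in untreated tumor 1, against 0.58 to 4.64 in the other 10. A tumor is a mixture, and in bulk RNA fewer cells of a type and less RNA per cell cannot be told apart. Each result that leans on ADI-PEG20 tumor 1 is therefore given with and without it.

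Levels across genes were compared per kilobase of exon, with every annotated exon of a gene counted, so genes with long annotated exons rank lower. By this measure Scd2, a desaturase that makes monounsaturated fatty acids, was the highest of the 30, with a mean over the 12 libraries of 84.3 CPM per kilobase. Srebf2 followed at 47.7, Fasn, the fatty acid synthase, at 41.0, and Acly, which makes cytosolic acetyl-CoA from citrate, at 36.2 CPM per kilobase. Among the sterol enzymes the highest were Cyp51, the lanosterol demethylase, at 19.2 and Sqle, the squalene epoxidase, at 17.7 CPM per kilobase. Tm7sf2, a sterol reductase, had 0.58 and Acss2, which makes acetyl-CoA from acetate, had 0.35 CPM per kilobase, the lowest of the set. Without the division by length their order was reversed, with means of 1.25 log2 CPM for Tm7sf2 and 1.75 for Acss2. Srebf1 was at 19.1 CPM per kilobase, below its relative Srebf2.

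Taken as a group, the sterol enzymes varied mostly between single tumors. Their mean level was 4.53, 4.54 and 4.49 log2 CPM in the doubly treated tumors and 3.82, 4.67 and 4.54 in the ADI-PEG20 tumors. It was 4.55, 4.81 and 4.27 log2 CPM in the chloroquine tumors, against 4.90, 4.52 and 4.57 in the untreated tumors. The 3 doubly treated tumors lay close together, with a mean of 4.52 ± 0.03 (SD, n = 3), while the ADI-PEG20 group at 4.34 ± 0.46 was spread out by its tumor 1. Without that tumor the ADI-PEG20 mean was 4.60, against 4.66 ± 0.21 in untreated tumors, and the ranges of the groups overlapped either way.

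The fatty acid enzymes held a narrower range. They averaged 6.21 ± 0.13 log2 CPM in doubly treated tumors, 6.19 ± 0.04 with ADI-PEG20, 6.11 ± 0.13 with chloroquine and 6.24 ± 0.04 without treatment (SD, n = 3 each). ADI-PEG20 tumor 1, at 6.15, lay inside the range of the other 11 libraries for this branch, 6.01 to 6.33 log2 CPM, although it was the lowest of the 12 for 5 of the 9 genes. The high level of Scd1 in that tumor, described below, enters this mean.

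The sterol mean minus the fatty acid mean, a measure of the balance of the branches within each tumor, was -1.80, -1.70 and -1.59 log2 units in doubly treated tumors. It was -2.33, -1.56 and -1.65 in ADI-PEG20 tumors, -1.46, -1.45 and -1.80 in chloroquine tumors, and -1.35, -1.75 and -1.62 in untreated tumors. Group means differed from that of the untreated tumors by -0.12 with both agents, -0.27 with ADI-PEG20 and 0.00 with chloroquine. The ADI-PEG20 difference was -0.03 without its tumor 1. In that tumor the fatty acid mean includes Scd1 at 8.35 log2 CPM, its highest level, although 5 of the 9 enzymes were at their lowest there. The value of -2.33 therefore leans in part on Scd1, and the balance without this gene was not computed. The tumors of every treated group overlapped those of the untreated group, with and without that tumor.

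**Figure D1:**
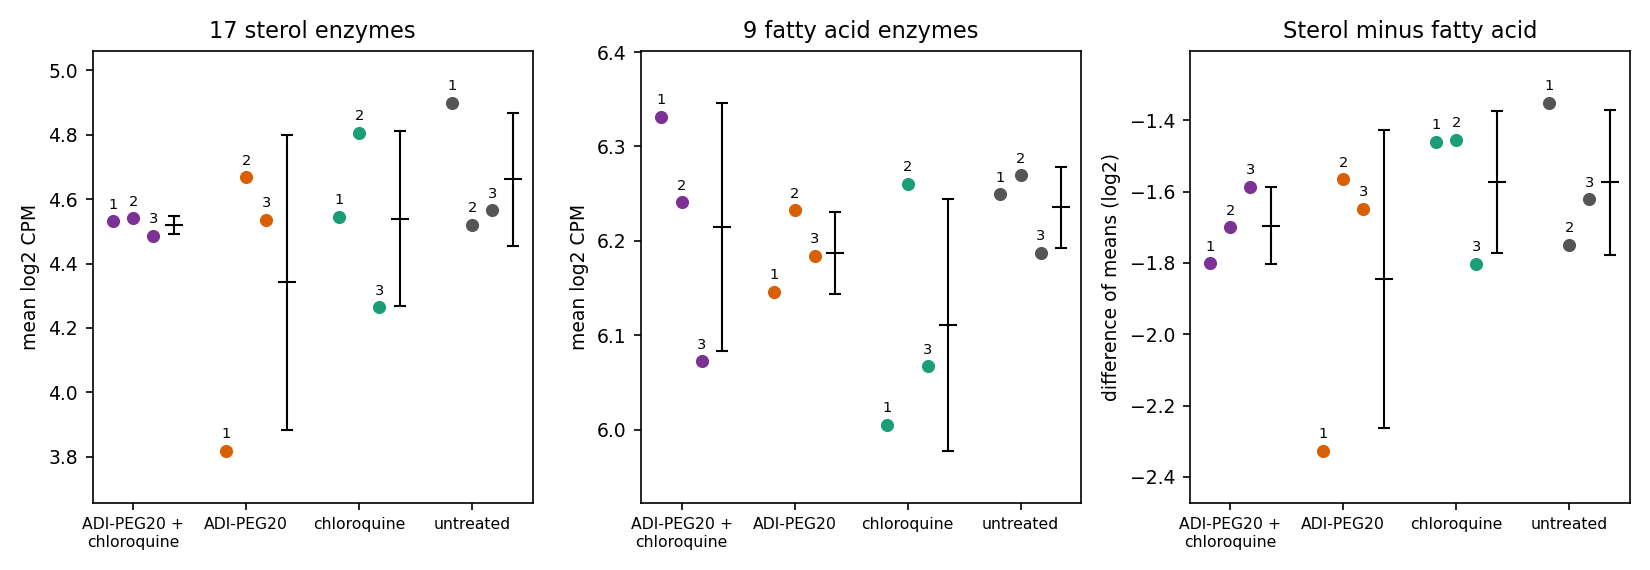
Mean log2 CPM of the 17 sterol enzymes, mean log2 CPM of the 9 fatty acid enzymes, and the difference of the 2 means, for each tumor (points, numbered by replicate) in the 4 groups, with the group mean and SD (bars, n = 3 tumors). The axes do not start at 0. ADI-PEG20 tumor 1 is the low point for sterol enzymes, at 3.82, and for the difference, at -2.33, where its high Scd1 level enters the fatty acid mean.

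Gene by gene, 13 of the 17 sterol enzymes had their lowest level in ADI-PEG20 tumor 1, and 15 of 17 lay below their median over the 12 libraries there. That tumor was also extreme over the whole table: 21.6% of all genes had their lowest value in it and 19.5% their highest. The exceptions were Mvk, Mvd, Ebp and Dhcr7. Mvk, the mevalonate kinase, was even highest there, at 4.21 log2 CPM. At the other end, untreated tumor 1 was highest for 5 sterol enzymes and above the median for 15 of 17, untreated tumor 2 was highest for 4, and chloroquine tumor 2 was highest for 3. Of all genes, 12.8%, 13.4% and 4.72% had their highest value in these tumors, in the same order. Chloroquine tumor 3 lay below the median for 16 of 17. Tumors of the same group thus stood at opposite ends of the range, which is the spread that each comparison below had to exceed.

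**Figure D2:**
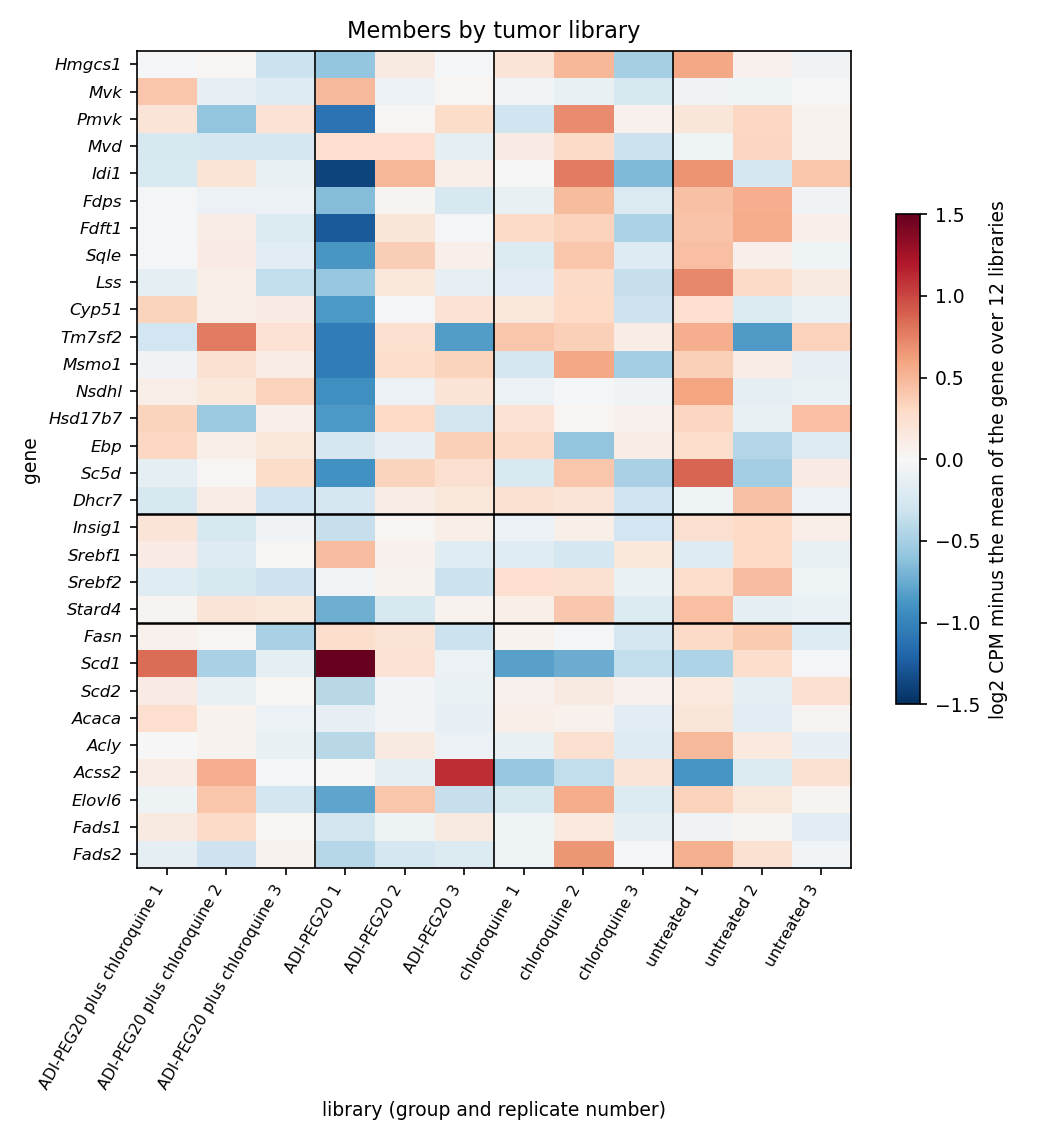
Level of each of the 30 genes (rows, with sterol enzymes at the top, then regulators and carriers, then fatty acid enzymes) in each tumor (columns), as log2 CPM minus the mean of that gene over the 12 libraries. The column of ADI-PEG20 tumor 1 is blue for most sterol enzymes, while Scd1 in that tumor lies beyond the red end of the color scale.

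The comparison of doubly treated with untreated tumors asks what both agents together do. No member passed (limma on log2 CPM, Benjamini-Hochberg over 16335 genes, threshold 0.05), and neither did any other gene, where 0% of the table was called. At an unadjusted p under 0.05 stood 1413 genes (8.65%), and 0 genes were called with voom weights, where 1609 had an unadjusted p under 0.05. Of the 17 sterol enzymes 12 had a fitted difference below 0, with a median of -0.23 log2 units, beside 49.2% of all genes below 0 and a median of 0.01 over all genes. Leaving out 1 library at a time moved this median between -0.25 and -0.09, with -0.09 without doubly treated tumor 2 and -0.11 without untreated tumor 1. Of the 9 fatty acid enzymes 5 lay below 0, with a median of -0.07. The 95% intervals of single members reached from -1.32 for Idi1, the isopentenyl diphosphate isomerase, to 1.37 for Acss2. Both are among the scarcer members.

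Srebf2, the gene of SREBP2 (ENSMUSG00000022463, chr15:82147181-82205379, GRCm38), had the smallest p of the 30 in this comparison. Its level was 8.22, 8.16 and 8.09 log2 CPM in doubly treated tumors and 8.35, 8.46 and 8.07 in ADI-PEG20 tumors. It was 8.65, 8.62 and 8.30 log2 CPM in chloroquine tumors and 8.67, 8.86 and 8.34 in untreated tumors. All 3 doubly treated tumors lay below all 3 chloroquine tumors and all 3 untreated tumors, while the ADI-PEG20 tumors overlapped each of the other groups. The difference of doubly treated from untreated tumors was -0.46 log2 units (SE 0.16, 95% interval -0.82 to -0.11, unadjusted p = 0.015), and it did not pass after adjustment (limma, adjusted p = 0.48). Against chloroquine alone the difference was -0.36 (SE 0.16, adjusted p = 0.72).

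Lss, the lanosterol synthase that closes the sterol rings (ENSMUSG00000033105, chr10:76531588-76557138), was at 4.78, 5.01 and 4.54 log2 CPM in doubly treated tumors, against 5.63, 5.20 and 5.04 in untreated tumors. The groups did not overlap, but their nearest tumors, at 5.01 and 5.04, lay close together. Its difference was -0.52 log2 units (SE 0.24, 95% interval -1.02 to -0.01, adjusted p = 0.57). Mvd, the mevalonate diphosphate decarboxylase (ENSMUSG00000006517, chr8:122433601-122443422), was at 3.74, 3.73 and 3.73 in doubly treated tumors, 4.23, 4.23 and 3.84 in ADI-PEG20 tumors, and 3.92, 4.30 and 4.03 log2 CPM in untreated tumors. Its doubly treated tumors were nearly identical to each other and below every ADI-PEG20 and untreated tumor. The differences were -0.35 from untreated (SE 0.20, adjusted p = 0.65) and -0.36 (SE 0.20, adjusted p = 0.89) from ADI-PEG20 alone.

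These 3 genes were the members whose doubly treated and untreated tumors did not overlap, all 3 lower in the doubly treated. Over all genes, 7.92% were lower without overlap in this comparison, so 3 of 30 is close to that background. In the comparison of doubly treated with ADI-PEG20 tumors, Mvd was 1 of 30 lower without overlap, beside 4.47% of all genes. Against chloroquine alone Srebf2 was 1 of 30 lower, beside 9.57%, and Nsdhl, a dehydrogenase that helps remove methyl groups from the sterol ring, was 1 of 30 higher, beside 8.78%.

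**Figure D3:**
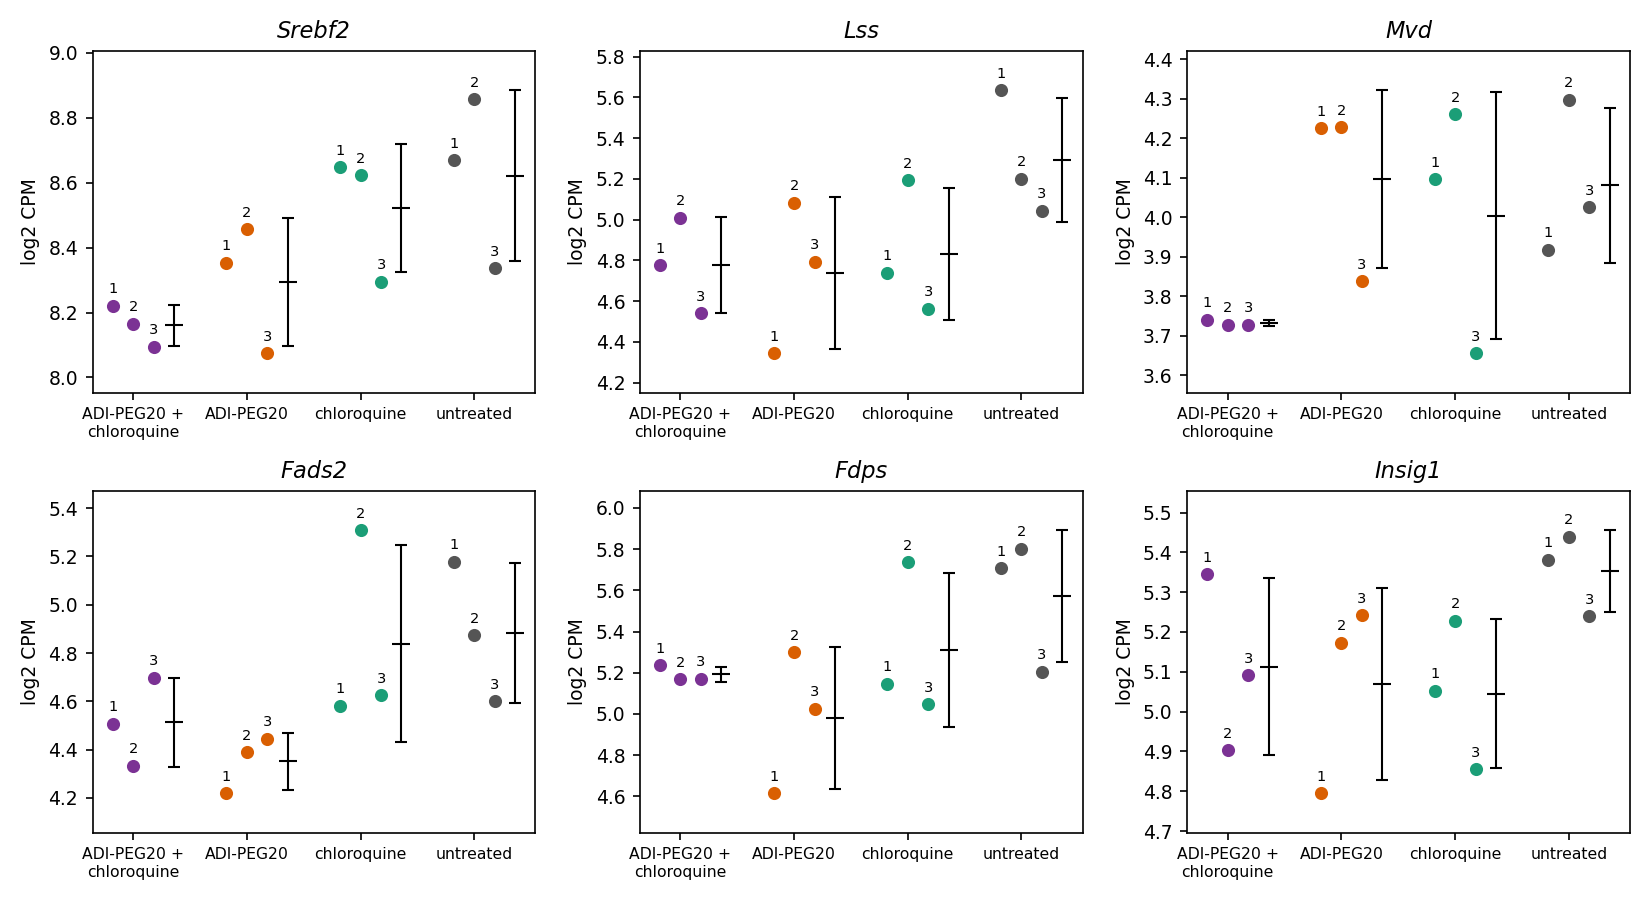
Log2 CPM of 6 genes in each tumor (points, numbered by replicate) of the 4 groups, with the group mean and SD (bars, n = 3 tumors). The axes do not start at 0 and differ between panels. For Srebf2, Lss and Mvd every doubly treated tumor lies below every untreated tumor.

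The promoters of these 3 genes are shown together with that of Hmgcs1, the HMG-CoA synthase that opens the mevalonate pathway, because Hmgcs1 was the member with a match to a known SREBP-binding sequence. The 3 were picked after their values were seen. The sequences are from RefSeq, build GRCm38.p6, 5′ to 3′ on the strand of the gene, and end at the base before the gene start of RefSeq or of GENCODE M21, whichever lies further upstream. They cover chr13:119690101-119690350 on the plus strand for Hmgcs1, chr10:76531355-76531587 on the plus strand for Lss, chr8:122443423-122443672 on the minus strand for Mvd and chr15:82147019-82147180 on the plus strand for Srebf2. Capitals mark the SREBP motif TCACNCCAC and the CCAAT box, the binding sequence of NF-Y, each on either strand. No match shown overlaps another.
Hmgcs1: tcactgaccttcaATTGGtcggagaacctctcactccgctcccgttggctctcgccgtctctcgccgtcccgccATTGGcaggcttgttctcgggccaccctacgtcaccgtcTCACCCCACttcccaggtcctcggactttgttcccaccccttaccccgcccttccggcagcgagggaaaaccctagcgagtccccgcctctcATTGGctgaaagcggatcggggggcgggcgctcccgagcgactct
Lss: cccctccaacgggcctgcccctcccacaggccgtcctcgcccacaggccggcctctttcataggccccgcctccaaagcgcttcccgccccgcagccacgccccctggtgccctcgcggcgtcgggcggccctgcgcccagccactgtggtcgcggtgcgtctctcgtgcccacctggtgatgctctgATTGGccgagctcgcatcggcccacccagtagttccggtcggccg
Mvd: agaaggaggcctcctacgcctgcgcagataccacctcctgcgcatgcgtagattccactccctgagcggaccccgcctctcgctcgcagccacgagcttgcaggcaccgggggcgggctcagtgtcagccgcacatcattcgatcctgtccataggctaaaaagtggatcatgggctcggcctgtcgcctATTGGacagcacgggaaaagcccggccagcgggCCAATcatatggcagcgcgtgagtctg
Srebf2: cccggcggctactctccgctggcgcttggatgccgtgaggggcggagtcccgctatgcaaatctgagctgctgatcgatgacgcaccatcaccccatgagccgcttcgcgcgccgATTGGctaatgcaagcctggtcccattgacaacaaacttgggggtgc

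In Hmgcs1 the SREBP motif began 137 bases upstream of the RefSeq start, between matches to the CCAAT box, of which the window held 3. Mvd held 2 CCAAT matches, the nearer 27 bases upstream, and Lss and Srebf2 held 1 each, at 62 and 135 bases upstream of the RefSeq start. RefSeq promoter entries were found for 23 of the 30 genes, 28 promoters in all, since a gene can have several. The SREBP motif stood within 250 bases upstream in 1 of these 28 promoters, beside 1.05% of all 32851 promoters searched. The CCAAT box stood in 20 of the 28 promoters, beside 33.8% of all. Counting a gene when any of its promoters held the box, it was found in all 14 sterol enzymes with an entry and in 2 of the 6 fatty acid enzymes with one. A match is only a run of letters and was not shown to be bound in these tumors, and the lack of one says only that these letters are not in this window.

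For ADI-PEG20 alone against untreated tumors the question is the effect of removing arginine. No gene passed (limma, 0% called, 1357 genes or 8.31% with an unadjusted p under 0.05, and 0 genes called with voom weights, where 970 had an unadjusted p under 0.05). Of the 17 sterol enzymes 14 had a fitted difference below 0, with a median of -0.35 log2 units, beside 51.3% and a median of -0.01 over all genes. Without ADI-PEG20 tumor 1 the median was -0.03, with 9 of 17 below 0. It was -0.16 without untreated tumor 1, and -0.12 with voom weights, where 12 of 17 lay below 0. The 12 listed genes of G2 and mitosis, all in the table and none at 0 reads, lay below 0 in the same comparison, 12 of 12 with a median of -0.33. Their mean level was lowest in ADI-PEG20 tumor 1, at 4.85 log2 CPM, and highest in untreated tumor 1, at 5.86, the tumors that were also lowest and highest for the sterol enzymes. It was 5.41 and 5.20 in ADI-PEG20 tumors 2 and 3, against 5.41 and 5.29 in untreated tumors 2 and 3, which overlapped. The lower values with ADI-PEG20 thus lean on single tumors. Summed, the genes of G2 and mitosis came to 688 to 856 CPM in doubly treated tumors, 521 to 746 with ADI-PEG20, 642 to 914 with chloroquine and 687 to 1011 without treatment. With both agents 10 of the 12 lay below 0, with a median of -0.14, and with chloroquine 5 of 12, with a median of 0.03. The part of cell division in the sterol enzyme levels was not tested. Of the 9 fatty acid enzymes 7 lay below 0, with a median of -0.12, and 6 of 9 with a median of -0.14 without that tumor. At an unadjusted p under 0.05 were 4 of the 30 members, all lower, beside 3.13% of all genes that were lower at that p, and without ADI-PEG20 tumor 1 none of the 30 was.

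Fdps, the farnesyl diphosphate synthase that feeds sterols and protein prenylation (ENSMUSG00000059743, chr3:89093588-89101959), was at 4.61, 5.30 and 5.02 log2 CPM with ADI-PEG20, against 5.71, 5.80 and 5.20 without treatment. Its ADI-PEG20 tumors 2 and 1 lay on both sides of the doubly treated tumors, at 5.24, 5.17 and 5.17 log2 CPM. The difference from untreated tumors was -0.59 log2 units (SE 0.23, adjusted p = 0.54), and -0.41 (SE 0.23, adjusted p = 0.75) without ADI-PEG20 tumor 1. Fdft1, the squalene synthase, was at 3.69, 5.14 and 4.93 with ADI-PEG20 and 5.38, 5.50 and 5.02 log2 CPM without treatment. Its difference of -0.72 (SE 0.33, adjusted p = 0.60) came to -0.27 (SE 0.24, adjusted p = 0.84) without that tumor. Lss differed by -0.55 (SE 0.24, adjusted p = 0.58), and by -0.35 (SE 0.23, adjusted p = 0.79) without it.

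Fads2, the desaturase that begins the synthesis of long polyunsaturated fatty acids (ENSMUSG00000024665, chr19:10062765-10101746), was less dependent on that tumor. Its level was 4.22, 4.39 and 4.45 log2 CPM with ADI-PEG20, against 5.18, 4.87 and 4.60 in untreated tumors. In doubly treated tumors it was 4.51, 4.33 and 4.70, and in chloroquine tumors 4.58, 5.31 and 4.63. All 3 ADI-PEG20 tumors lay below all 3 untreated tumors, and Fads2 was the 1 member of 30 for which this held, beside 4.54% of all genes lower without overlap. The difference was -0.53 log2 units (SE 0.22, adjusted p = 0.56), and -0.47 (SE 0.24, adjusted p = 0.73) without ADI-PEG20 tumor 1. Fads1, the next desaturase of that pathway, was at 6.08, 6.28 and 6.49 with ADI-PEG20 and 6.30, 6.40 and 6.19 log2 CPM without treatment, so its groups overlapped.

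Scd1 (ENSMUSG00000037071, chr19:44394455-44407879), a stearoyl-CoA desaturase abundant in fat, was the member with the widest range. It reached 8.35 log2 CPM in ADI-PEG20 tumor 1 and 7.37 in doubly treated tumor 1. The other 10 tumors lay between 5.71 and 6.80, with 6.75 and 6.45 in the other ADI-PEG20 tumors and 6.06, 6.80 and 6.50 in untreated tumors. The same 2 tumors held the most adipocyte marker RNA, with a mean over 6 markers of 5.0 and 3.18 log2 CPM, against -0.08 to 2.11 in the other 10. These 6 of 12 listed markers were in the table, none was at 0 reads in any library, and their summed level ran over 21.7 to 90.0 CPM in doubly treated tumors, 16.2 to 288 in ADI-PEG20 tumors, 19.8 to 28.7 in chloroquine tumors and 18.7 to 37.7 in untreated tumors. The part of fat tissue in the Scd1 level was not tested. The difference of Scd1 between ADI-PEG20 and untreated tumors was 0.73 log2 units (SE 0.43, adjusted p = 0.64), and 0.15 (SE 0.33, adjusted p = 0.95) without ADI-PEG20 tumor 1.

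Scd2, its neighbor on chromosome 19 (chr19:44293674-44306864), did not share this pattern. It was at 8.96, 8.73 and 8.87 log2 CPM in doubly treated tumors, 8.42, 8.80 and 8.73 with ADI-PEG20, 8.90, 8.98 and 8.90 with chloroquine, and 8.98, 8.70 and 9.08 without treatment. ADI-PEG20 tumor 1, the highest for Scd1, was the lowest for Scd2. The genes are close relatives, and how reads that fit both were counted is not given in the sources used here.

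**Figure D4:**
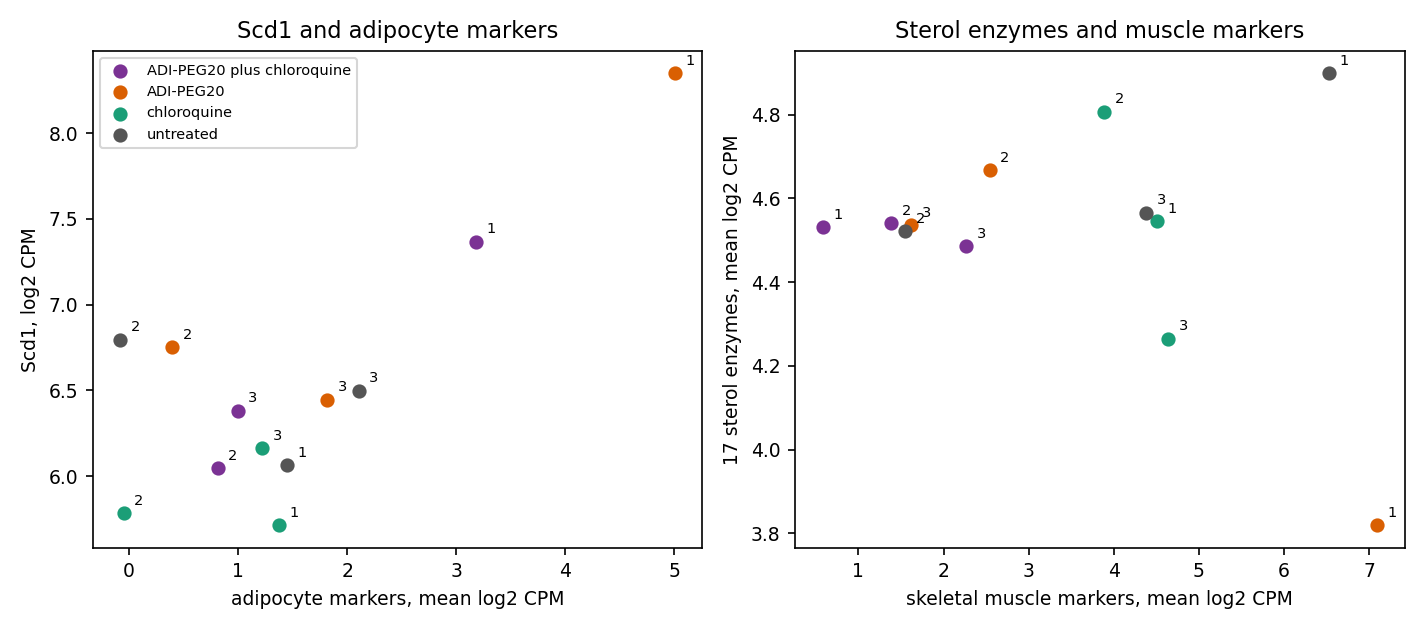
Left, Scd1 (log2 CPM) against the mean log2 CPM of 6 adipocyte markers; right, the mean of the 17 sterol enzymes against the mean of 14 skeletal muscle markers (both log2 CPM), each point a tumor, colored by group and numbered by replicate. The axes do not start at 0. ADI-PEG20 tumor 1 is at the upper right of the left panel and the lower right of the right panel, while untreated tumor 1, also rich in muscle RNA, has the highest sterol enzyme mean.

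The tumors richest in muscle RNA stood at opposite ends of the sterol enzyme range. ADI-PEG20 tumor 1, with a muscle marker mean of 7.09 log2 CPM, had the lowest sterol enzyme mean, and untreated tumor 1, at 6.53, had the highest. The summed level of these markers was 73.6 to 132 CPM in doubly treated tumors, 85.6 to 3335 in ADI-PEG20 tumors, 766 to 888 in chloroquine tumors and 79.4 to 2474 in untreated tumors, and 1 marker was at 0 reads in 1 doubly treated tumor. Macrophage and monocyte markers, 12 of 12 in the table, summed to 1486 to 1924 CPM in doubly treated tumors, 1333 to 1746 with ADI-PEG20, 976 to 1363 with chloroquine and 903 to 1112 without treatment, with none at 0 reads. They stood higher in every tumor given ADI-PEG20, alone or with chloroquine, than in every untreated tumor. On average over the tumors given ADI-PEG20, Srebf2, Fads2 and Fdps were lower and Scd1 was higher than in tumors without it. For each of these genes some tumors given ADI-PEG20 overlapped the untreated ones. The part of these cells in the differences was not tested.

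Chloroquine against untreated tumors shows the lysosomal agent alone. No gene passed (limma, 0% called, 555 genes or 3.4% with an unadjusted p under 0.05, and 0 genes called with voom weights, where 453 had an unadjusted p under 0.05), and none of the 30 members had an unadjusted p under 0.05. Of the 17 sterol enzymes 14 had a fitted difference below 0, but the median was -0.14 log2 units, beside 50.7% and a median of 0.00 over all genes. This median was -0.08 with voom weights, -0.30 without chloroquine tumor 2, -0.03 without chloroquine tumor 3 and -0.04 without untreated tumor 1. Of the 9 fatty acid enzymes 6 lay below 0, with a median of -0.05. The widest differences were those of Scd1, at -0.57 (SE 0.43, 95% interval -1.49 to 0.36), and Lss, at -0.46 (SE 0.24, 95% interval -0.97 to 0.05).

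Insig1, whose protein holds SREBP precursors back and which is itself an SREBP target (ENSMUSG00000045294, chr5:28071363-28078662), was the 1 member of 30 that was lower without overlap with chloroquine, beside 3.72% of all genes. It was at 5.05, 5.23 and 4.86 log2 CPM with chloroquine, against 5.38, 5.44 and 5.24 without treatment. The closest tumors of the groups, 5.23 and 5.24, nearly touched, and the difference was -0.31 log2 units (SE 0.17, 95% interval -0.68 to 0.07, adjusted p = 0.999). Doubly treated tumors, at 5.34, 4.90 and 5.09, and ADI-PEG20 tumors, at 4.79, 5.17 and 5.24, covered the same range. Hmgcs1, with the SREBP motif in its promoter, was at 6.10, 6.41 and 5.41 with chloroquine and 6.49, 5.97 and 5.85 log2 CPM without treatment. Its chloroquine tumors lay on both sides of all untreated ones but the highest.

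For the other 2 genes of this group, Srebf1 and Stard4, no comparison of the groups was free of overlap. Srebf1 (ENSMUSG00000020538, chr11:60199089-60222581) was at 6.85, 6.54 and 6.74 log2 CPM in doubly treated tumors, 7.20, 6.80 and 6.55 with ADI-PEG20, 6.55, 6.47 and 6.89 with chloroquine, and 6.53, 7.03 and 6.62 without treatment. Its 3 differences from untreated tumors lay within 0.12 log2 units of 0. Stard4, a carrier that moves sterol between membranes, averaged 4.62 ± 0.08, 4.18 ± 0.39 and 4.59 ± 0.31 log2 CPM in doubly treated, ADI-PEG20 and chloroquine tumors, against 4.56 ± 0.33 in untreated tumors (SD, n = 3 each).

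**Figure D5:**
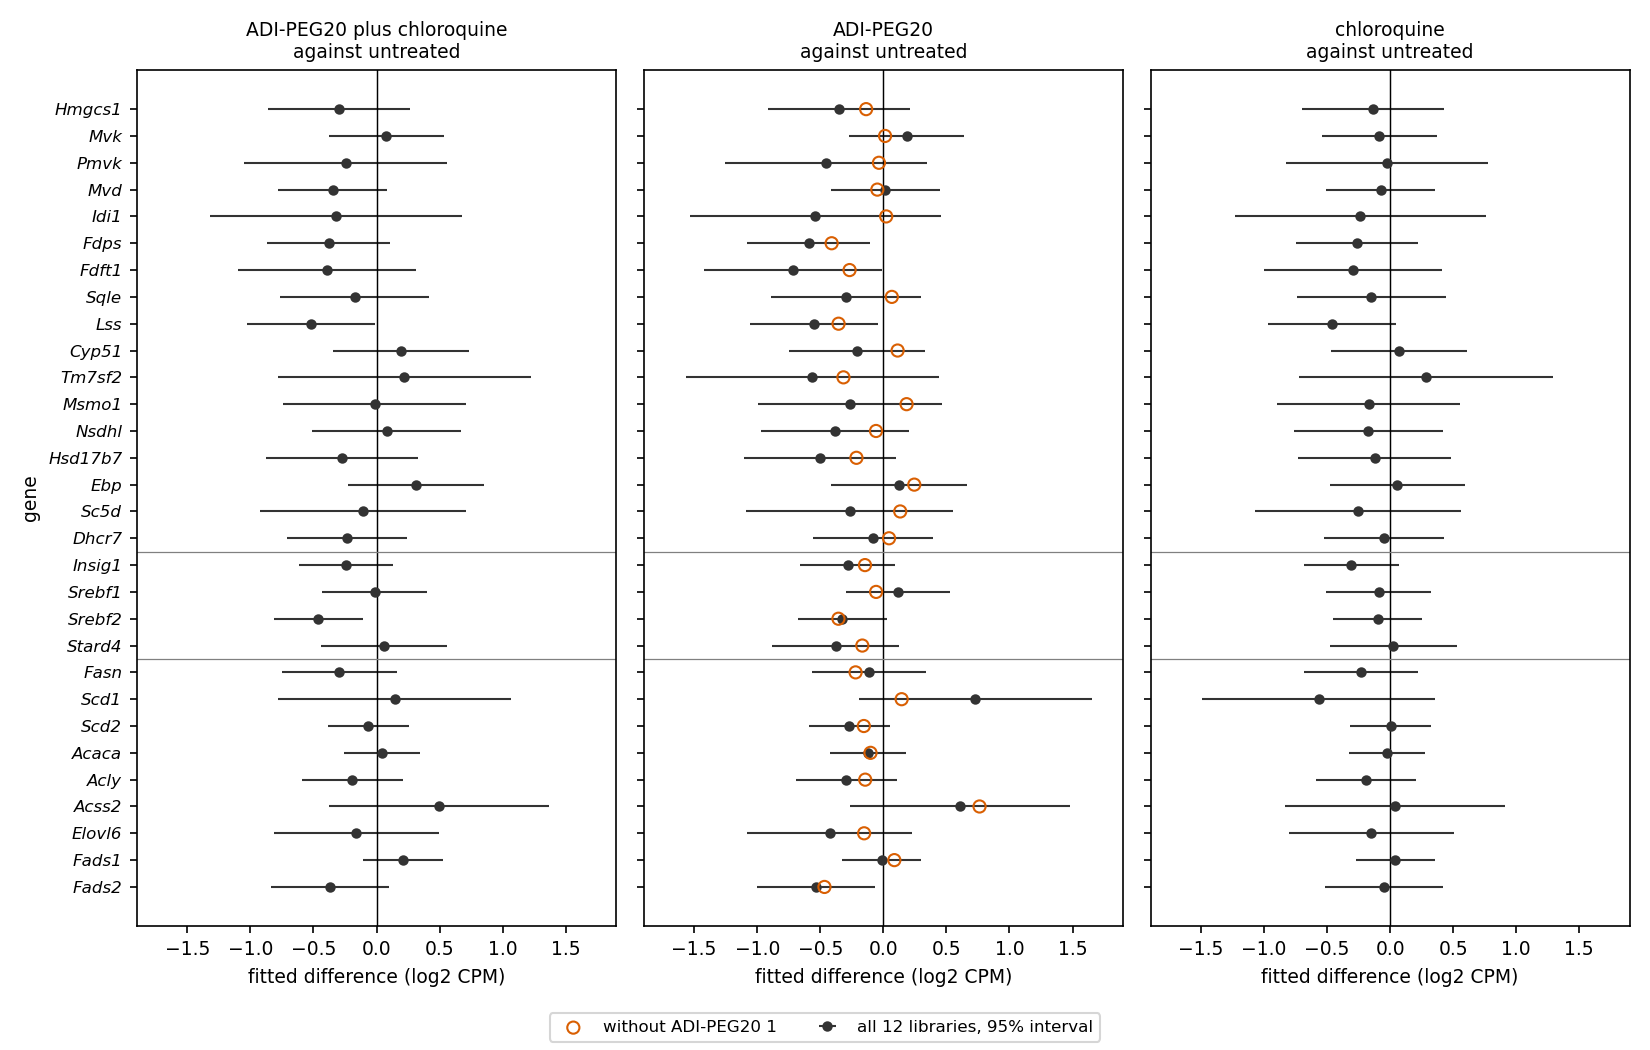
Fitted difference from untreated tumors (log2 CPM, points) with its 95% interval (lines) for each of the 30 genes under both agents, ADI-PEG20 and chloroquine. Open circles in the middle panel are the values without ADI-PEG20 tumor 1, which lie nearer to 0 for most sterol enzymes. The interval stays below 0 in the left panel for Srebf2 and Lss. In the middle panel, with all 12 libraries, it stays below 0 for 4 of the 30 genes. No gene passed after adjustment.

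Averaging the effect of ADI-PEG20 over tumors with and without chloroquine sets 6 treated libraries against 6 others. No gene passed (limma, 0% called, 1601 genes or 9.8% with an unadjusted p under 0.05), while a voom fit with library weights called 47 genes, none of them a member. Among the members Srebf2 differed by -0.34 log2 units (SE 0.12, 95% interval -0.59 to -0.09, adjusted p = 0.34) and Fads2 by -0.43 (SE 0.15, 95% interval -0.76 to -0.10, adjusted p = 0.36). Fdps differed by -0.35 (SE 0.16, adjusted p = 0.49) and Scd1 by 0.72 (SE 0.30, adjusted p = 0.45). Those 4 had an unadjusted p under 0.05, 3 lower and 1 higher, beside 4.38% and 5.42% of all genes. Without ADI-PEG20 tumor 1 the values were -0.36 for Srebf2, -0.40 for Fads2, -0.26 for Fdps and 0.43 for Scd1, and only Srebf2 (adjusted p = 0.23) and Fads2 (adjusted p = 0.31) still had an unadjusted p under 0.05.

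The interaction, in which the ADI-PEG20 effect found without chloroquine is subtracted from the one found with it, had a median of 0.35 log2 units over the sterol enzymes, with 14 of 17 above 0, beside 49.6% of all genes below 0. Without ADI-PEG20 tumor 1 this median was 0.01, with 10 of 17 above 0. No member passed, and the smallest unadjusted p was 0.12, for Nsdhl at 0.64 (SE 0.39, adjusted p = 0.82). Nsdhl was at 4.55, 3.82 and 3.86 log2 CPM in untreated tumors and at 3.04, 3.87 and 4.17 with ADI-PEG20. Its value thus leans on single tumors, among them ADI-PEG20 tumor 1. In tumors given both agents against ADI-PEG20 alone, 14 of 17 sterol enzymes lay above 0 with a median of 0.21, beside 48.9% of all genes below 0, and without that tumor 6 of 17 with a median of -0.16. Comparisons that share a group of tumors, as these do, are not independent of each other.

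For each of the remaining sterol enzymes named here, every treated group overlapped the untreated tumors. Idi1 was at 2.70, 3.13 and 2.81 log2 CPM in doubly treated tumors, 1.54, 3.43 and 3.02 with ADI-PEG20, 2.92, 3.70 and 2.27 with chloroquine, and 3.60, 2.67 and 3.34 without treatment. Its range of 2.17 log2 units was the widest of the sterol enzymes. Sc5d, the lathosterol oxidase, spanned 3.28 log2 CPM in ADI-PEG20 tumor 1 to 5.07 in untreated tumor 1. Cyp51 averaged 6.55 ± 0.13 in doubly treated tumors, 6.15 ± 0.57 with ADI-PEG20 and 6.43 ± 0.32 with chloroquine, against 6.36 ± 0.24 log2 CPM without treatment (SD, n = 3 each). Msmo1, the sterol methyl oxidase, averaged 5.90 ± 0.14, 5.65 ± 0.78 and 5.75 ± 0.57 in the same treated groups, against 5.92 ± 0.24 log2 CPM in untreated tumors. Pmvk, the phosphomevalonate kinase, Sqle, Hsd17b7, a ketosteroid reductase, Tm7sf2, and the isomerase Ebp and reductase Dhcr7 that act late in the pathway had adjusted p-values above 0.6 in each comparison with untreated tumors.

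Of the fatty acid enzymes, Acaca, the carboxylase that makes malonyl-CoA, was the steadiest member, with a range of 0.41 log2 units over the 12 libraries. Its interval for doubly treated against untreated tumors ran from -0.26 to 0.35. Fasn was at 8.85, 8.81 and 8.30 log2 CPM in doubly treated tumors, 9.05, 8.99 and 8.47 with ADI-PEG20, 8.84, 8.76 and 8.54 with chloroquine, and 9.07, 9.18 and 8.59 without treatment. Tumor 3 was the lowest in each group for Fasn. Acly averaged 7.54 ± 0.08 in doubly treated tumors, 7.44 ± 0.28 with ADI-PEG20, 7.54 ± 0.23 with chloroquine and 7.73 ± 0.30 log2 CPM without treatment (SD, n = 3 each). Elovl6, which lengthens palmitate, ranged from 3.53 log2 CPM in ADI-PEG20 tumor 1 to 4.87 in chloroquine tumor 2. Acss2 was scarce, with 42 to 165 reads per library, and its highest value, 2.85 log2 CPM, was in ADI-PEG20 tumor 3.

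In the authors' deposited table none of the 30 members passed an adjusted p of 0.05 in any of 6 comparisons of the groups, in which 0 or 1 of 16335 genes passed. The smallest adjusted p of a member in the authors' deposited table was 0.22, for Srebf2 in doubly treated against chloroquine tumors, at a log2 fold change of -0.40. For the KEGG set of steroid biosynthesis, which holds 11 of the members among 17 genes, the adjusted p in the authors' deposited table of gene sets was 0.912 for both agents, 0.999 for ADI-PEG20 and 0.796 for chloroquine, each against no treatment. These come from one-sided tests. The authors' deposited statistic of this set was 0.285, 0.146 and -0.0047 in the same order, so it was not below 0 for both agents or for ADI-PEG20, unlike the sterol enzyme medians above. The authors' set of terpenoid backbone biosynthesis holds 6 of the members among 21 genes. Its statistic was -0.842, -1.06 and -0.357 in the same order, below 0 as the sterol enzyme medians were, and it passed in none of these comparisons.

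Genes around the pathway were read from 3 further lists, and none of their genes passed in any comparison. Of 17 measured genes of SREBP processing and other lipid synthesis steps, 11 lay below 0 in doubly treated against untreated tumors, with a median of -0.11 log2 units. The 2 with the widest differences there were Mlxipl, which encodes the carbohydrate-responsive factor ChREBP, at -2.85 (SE 1.42, adjusted p = 0.60), and Acacb, the mitochondrial acetyl-CoA carboxylase, at -0.90 (SE 0.58, adjusted p = 0.68). Mlxipl had only 2 to 171 reads per library and spanned -3.14 to 0.68 log2 CPM in doubly treated tumors, against 0.39 to 2.78 in untreated ones. Of 8 genes listed for liver X receptors and their targets, which respond to excess sterol, 6 lay above 0 with a median of 0.37. The list also holds Nr1h4, the farnesoid X receptor, which is not a liver X receptor, and the median without it was not computed. Apoe, the apolipoprotein that carries cholesterol out of cells and is abundant in macrophages, was at 10.59, 10.43 and 10.66 log2 CPM in doubly treated tumors and 9.73, 10.18 and 10.09 in untreated tumors, with no overlap. Apoe was among 2 of the 8 genes that were higher without overlap, beside 7.46% of all genes. Its difference was 0.56 log2 units (SE 0.20, adjusted p = 0.49), beside the higher macrophage marker levels given above. Nr1h3, the liver X receptor alpha, differed by 0.58 (SE 0.53, adjusted p = 0.79).

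Of 11 genes of sterol trafficking and esterification, 8 lay above 0 in doubly treated against untreated tumors, with a median of 0.14. Soat2, which esterifies cholesterol, was at 2.21, 2.75 and 2.68 log2 CPM in doubly treated tumors, 2.40, 2.82 and 2.55 with ADI-PEG20, 1.54, 0.64 and 2.24 with chloroquine, and 1.07, 2.39 and 1.69 without treatment. Its differences were 0.83 (SE 0.42, adjusted p = 0.60) for both agents against none and 0.97 (SE 0.29, adjusted p = 0.29) for ADI-PEG20 averaged over chloroquine. Gramd1c, a sterol transfer protein, differed by -0.47 (SE 0.69, adjusted p = 0.89) between doubly treated and untreated tumors. Npc1 and Npc2, named after their values were seen, were 2 of the 11 that were higher without overlap in doubly treated tumors, at 0.23 each (SE 0.14 and 0.20), beside 7.46% of all genes, and neither passed.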

How the data were processed

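RNA-seq of 12 tumors was analysed from the authors' deposited tables. Tools named in the submitters' processing notes are STAR 2.5.1a, featureCounts 1.4.6-p5 of Subread, Salmon 0.8.2, limma and edgeR, with the build mm10, and the role of each is not given. The authors deposited log2 CPM per library, computed with 0.5 added to each read count. The smallest value in a column was taken to be a gene with 0 reads, which gave the CPM of a single read. Read counts rebuilt from it were whole numbers to within 0.02 for 100% of the values under 2000 reads. Per the file headers, the merged table also holds a log2 fold change, p-value and adjusted p-value per comparison, and the tables of gene sets hold a one-sided p-value and a statistic that serves as a score. Of 16386 lines, 51 repeats of a gene were dropped. No filter on low genes was added, because the scarcest gene listed had 85 reads over the 12 libraries.

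All 12 libraries entered a single linear model of the deposited log2 CPM (limma 3.58.1, R 4.3.3) with a trend in expression, no covariate, two-sided tests and Benjamini-Hochberg adjustment over 16335 genes at 0.05. The 0.5 added to each count before the log2 understates fold changes of scarce genes. Summaries were made with Python 3.11.15 and pandas 2.3.3. Alternatives were voom with library quality weights, recomputed scaling, median centring, another pseudocount, a filter on low genes, the compared groups alone, a replicate block, and leaving out each library. Gene positions and exon lengths are from GENCODE M21 (GRCm38).

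The members, the lists and the rule for names were chosen with earlier results of these data known. All 30 members are described, and outside them the 2 genes per list with the widest difference in doubly treated against untreated tumors are named, except where a gene is said to be named after its values were seen.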

Additional observations from a re-analysis of the deposited data

How the results depend on the processing

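None of the 30 members passed under any alternative, and the smallest adjusted p among them was 0.16, for Srebf2 with ADI-PEG20 averaged over chloroquine under voom weights (limma). Counts of called genes, 0 in the analysis reported, came to 1 (doubly treated against chloroquine) and 47 (ADI-PEG20 averaged) with voom weights, and to 72 for doubly treated against chloroquine with the compared groups alone. With the replicate block they were 8 (doubly treated against untreated) and 31 (ADI-PEG20 averaged). Shared replicate numbers were not taken as pairs, because the labels do not say that they belong together. Of 18 same-numbered pairs 9 correlated above 0.1 (median 0.097, range -0.05 to 0.20), while the 36 other pairs had a median of -0.039 (range -0.24 to 0.19). In addition, 9 of 12 libraries correlated best with their own number, a hint from the data and not from the design. Without both ADI-PEG20 tumor 1 and untreated tumor 1, an alternative added after seeing the data, the counts were 6 (doubly treated against untreated) and 24 (ADI-PEG20 averaged), the sterol median for ADI-PEG20 against untreated was 0.0068, and the balance of the branches differed by 0.079. Leaving out 1 library at a time gave 0 to 1 called genes for ADI-PEG20 against untreated (1 without untreated tumor 3) and for doubly treated against chloroquine (1 without ADI-PEG20 tumor 3). For ADI-PEG20 averaged it gave 0 to 19: 19 without ADI-PEG20 tumor 1, 15 and 13 without untreated tumors 3 and 2, 8 without chloroquine tumor 3 and 3 without ADI-PEG20 tumor 2. The sterol median for ADI-PEG20 against untreated then ran from -0.49 to -0.035, the high end without ADI-PEG20 tumor 1. The fatty acid median ran from -0.26 (without chloroquine tumor 2) to -0.0098 for chloroquine, and from -0.17 (without untreated tumor 2) to 0.014 for both agents. Of the 30 members, 11 (both agents), 16 (ADI-PEG20) and 20 (chloroquine, each against untreated) changed the sign of their difference when some library was left out. The cause was not tested. Count tests were not run, since the deposited values are log2 CPM. Depth was lowest for Tm7sf2 and Acss2, at 14 to 95 and 42 to 165 reads per library.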
